A study of Homo sapiens with 12 samples.

Results

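Mismatch repair was followed in RNA-seq of TYK-nu cells through 6 genes taken by name from a table of 17508 genes: MSH3, MSH6, MLH3, PMS1, PMS2 and EXO1. The rule that names them uses no measured value, although the 6 genes and the lists set beside them were chosen with earlier results of these data known. All 6 had exon and intron counts in each of the 12 libraries, and all 6 passed the low-count filter of every test. TYK-nu is labelled as a line of high-grade serous ovarian carcinoma. The study did not authenticate its lines, and some markers of that label were at or near 0. Cells received 15 μM cisplatin, a platinum drug that crosslinks DNA, or DMSO, the solvent control, for 24 or 72 h. Each of the 4 groups (DMSO 24 h, cisplatin 24 h, DMSO 72 h and cisplatin 72 h) had 3 libraries of poly(A) RNA from this single line, with no genetic change between groups. The study's methods say that cells were grown in triplicate and, in general, that experiments were repeated independently, but do not say whether the libraries of a group came from separate repeats. The p-values measure the spread between these libraries, which may be technical.

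Mismatch repair removes bases that a DNA polymerase has paired wrongly, together with small loops left by strand slippage. A MutS heterodimer binds the mismatch, a MutL heterodimer is recruited and nicks the new strand, the exonuclease EXO1 removes the strand past the error, and the replication machinery refills and seals the gap. MutS dimers also bind the DNA crosslinks that cisplatin makes, and loss of mismatch repair is a known route to tolerance of the drug in ovarian cancer cells. The question put to the counts was whether these genes differed between cisplatin and DMSO, in spliced RNA or in intron-containing RNA, and whether they differed between the 2 time points.

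Exon counts summed to between 17341818 and 63913081 per library and intron counts to between 1185012 and 4840181. The highest total was in cisplatin at 72 h and the lowest in cisplatin at 24 h. Carcinoma markers were mixed: VIM, KRT18 and KRT8 were abundant (at least 207 exon counts in every library), WT1 had 41 to 170, EPCAM 2 to 83, KRT7 at most 8, PAX8 at most 2, and CDH1 none in any library. Among markers of other cell types, PTPRC, LUM and HBB had no exon count in any library, whereas PECAM1, which marks endothelium, had 34067 to 90727. PAX8, KRT7 and CDH1, markers often found in serous carcinoma, were thus at or near 0, so the cells are called TYK-nu here by their label alone.

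The annotation (GENCODE 44 on GRCh38) placed MSH6 at chr2:47695530-47810063 and PMS1 at chr2:189784085-189877629. MSH3 lay at chr5:80654652-80876815 and EXO1 at chr1:241847967-241895148, all 4 on the plus strand. MLH3 (chr14:75013769-75051532) and PMS2 (chr7:5970925-6009130) lay on the minus strand. The main (MANE Select) transcripts held between 10 exons (MSH6) and 24 exons (MSH3). Counts of the genes named next were uncertain by sequence or position. PMS2 had 16 annotated gene copies that matched its transcript at 95% identity or more over at least 200 bases, of which PMS2CL (98% identity over 1448 bases) was in the count table. Exons of MSH6 in its extended annotation overlapped those of FBXO11 on the other strand by 4022 bases and the pseudogene RPL36AP15 by 266 bases. Exons of EXO1 overlapped those of a long non-coding RNA on the other strand by 160 bases, and exons of PMS1 those of ORMDL1 by 96 bases. The library kit kept strand, but the strand setting of the counting was not given in the sources used here.

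Promoters of the 3 genes that fell with time are shown with matches to letters known from E2F sites, E2F factors being regulators of many S-phase genes. The matches are descriptions of the letters, since binding was not measured, and MSH3, which was not called, held 2 of them. Each is the RefSeq window from 250 bases before to 50 after the transcription start (GRCh38.p14), written 5′ to 3′ on the gene's own strand. Capitals mark the letters TTTCCCGC, TTTGGCGC, TTTCGCGC or TTTGCCGC on either strand.
MSH6 (chr2:47782895-47783194, plus strand): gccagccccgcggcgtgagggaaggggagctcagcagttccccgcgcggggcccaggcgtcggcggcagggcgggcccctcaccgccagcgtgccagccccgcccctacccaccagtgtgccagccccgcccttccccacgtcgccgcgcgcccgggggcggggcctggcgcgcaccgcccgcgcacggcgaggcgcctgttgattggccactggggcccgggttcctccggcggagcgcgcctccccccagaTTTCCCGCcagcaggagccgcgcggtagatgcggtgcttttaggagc
EXO1 (chr1:241847954-241848253, plus strand): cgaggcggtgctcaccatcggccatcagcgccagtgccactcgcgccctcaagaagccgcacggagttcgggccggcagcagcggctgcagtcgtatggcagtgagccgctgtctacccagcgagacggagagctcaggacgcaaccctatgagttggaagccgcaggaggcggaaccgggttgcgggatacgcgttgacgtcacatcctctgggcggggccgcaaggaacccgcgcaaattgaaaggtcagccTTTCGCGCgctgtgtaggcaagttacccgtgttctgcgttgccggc
PMS2 (chr7:6009000-6009299, minus strand): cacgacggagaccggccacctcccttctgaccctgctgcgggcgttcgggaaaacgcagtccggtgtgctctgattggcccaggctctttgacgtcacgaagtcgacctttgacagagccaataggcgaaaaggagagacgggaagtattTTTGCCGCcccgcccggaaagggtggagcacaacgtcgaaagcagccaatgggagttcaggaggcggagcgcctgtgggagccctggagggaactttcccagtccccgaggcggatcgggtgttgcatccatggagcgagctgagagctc

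In MSH6 and EXO1 the letters began 3 and 4 bases after the start, whereas in PMS2 they began 100 bases before it. In MSH3, which did not pass the test with time, a match on the plus strand began 107 bases before the start and overlapped a match on the other strand that began 103 bases before it. The promoters of MLH3 and PMS1 held none of these letters. Across all 35116 promoters of the same length in the RefSeq table, 1164 (3.31%) held them. Counted per gene, with any promoter of a gene taken, 1090 of 27305 genes (3.99%) held them. In that count they were found in 5 of the 8 matched S-phase and proliferation genes and in 3 of the 11 matched genes of later repair steps. The letters TTTGAA, part of a cell-cycle element, were absent from all 6 windows (15.2% of all promoters held them), and CCAAT was present in MSH6, PMS1 and PMS2 (34.6% of all promoters).

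Levels between genes were compared as exon CPM (counts scaled to a common library size with TMM factors) per kilobase of annotated exon (mean ± SD, n = 3 libraries per group). At 24 h in DMSO, EXO1 had the highest level of the 6 (17.2 ± 1.40), followed by MSH6 (13.4 ± 0.700), MSH3 (9.90 ± 0.902), PMS2 (5.85 ± 0.253), PMS1 (4.58 ± 0.524) and MLH3 (3.61 ± 0.255). No neighbours in this order overlapped between libraries. At 72 h in DMSO, MSH3 came first (8.80 ± 0.442), ahead of EXO1 (6.19 ± 0.200) and MSH6 (6.04 ± 0.220), which overlapped each other. The order in cisplatin was that of DMSO at each time. The annotated exons of MSH6 covered 17722 bases against 4265 for its main transcript, and per kilobase of the main transcript MSH6 came first in every group, at 55.6 ± 2.91 at 24 h and 25.1 ± 0.915 at 72 h in DMSO. By that length PMS2 (12.9 ± 0.558) and MSH3 (11.9 ± 1.08) overlapped at 24 h in DMSO, and so did PMS1 (7.73 ± 0.234) and EXO1 (7.42 ± 0.240) at 72 h. MLH3 was lowest by either length in every group.

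Cisplatin left the exon counts of all 6 genes within 1.12-fold of DMSO at both times, and none passed the test. In edgeR's quasi-likelihood fit, with p adjusted over 10444 genes (Benjamini-Hochberg), 0 of the 6 genes were called at 24 h (0 of all genes, or 0%), with 0 of 6 and 260 of all genes at an unadjusted p under 0.05. At 72 h 0 of the 6 were called (0.0287% of all genes), with 1 of 6 and 1311 of all genes at an unadjusted p under 0.05. DESeq2 called 0 of the 6 at either time. At 72 h, however, it gave no adjusted p for EXO1, MLH3, MSH3 and PMS1, so it could not call them. These counts come from bulk RNA, in which fewer cells of a type and less RNA per cell cannot be told apart.

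EXO1, the exonuclease, had the largest difference at 72 h with all libraries used. Its exon CPM values were 24.7, 25.8 and 26.3 in DMSO and 31.3, 28.2 and 26.4 in cisplatin, and the lowest cisplatin library lay just above the highest DMSO library. The log2 fold change was 0.16 ± 0.07 (SE, n = 3 per group; 95% interval 0.01 to 0.31; adjusted p = 0.369 by edgeR). It was 0.087 without cisplatin 72 h replicate 1 and 0.21 without cisplatin 72 h replicate 3. At 24 h EXO1 was 65.4, 71.6 and 76.9 in DMSO and 72.2, 72.3 and 70.2 in cisplatin, a log2 fold change of 0.01 ± 0.07.

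MLH3, the MutL subunit best known from meiotic crossovers, gave a log2 fold change of 0.14 ± 0.07 at 24 h and 0.13 ± 0.07 at 72 h. The 24 h value was 0.085 without DMSO 24 h replicate 1 and 0.18 without DMSO 24 h replicate 3. Every cisplatin library exceeded every DMSO library of the same time for MLH3: at 24 h 32.0 to 34.4 against 27.8 to 31.8 exon CPM, and at 72 h 35.3 to 36.1 against 30.6 to 33.9. At 24 h the nearest libraries of the groups lay close together. The adjusted p was 0.9997 at 24 h and 0.437 at 72 h by edgeR. The damage-recognition subunits showed smaller values. MSH6, of the MutS dimer for single mismatches, was at 0.02 ± 0.05 at 24 h and 0.09 ± 0.05 at 72 h, and MSH3, of the dimer for larger loops, at -0.02 ± 0.08 and -0.03 ± 0.08.

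The MutL subunits PMS1 and PMS2 also stayed near 0 on the log2 scale. PMS1, whose part in repair is minor, was at 0.06 ± 0.08 at 24 h and 0.07 ± 0.08 at 72 h, and PMS2, which carries the nicking activity of the main MutL dimer, at 0.06 ± 0.06 and -0.00 ± 0.06. Over the 6 genes the 95% intervals reached from -0.19 to 0.29 at 24 h and from -0.18 to 0.31 at 72 h, and the highest bound, that of EXO1 at 72 h, was 1.24-fold. The median log2 fold change was 0.04 for the 6 genes and -0.00 for all genes at 24 h, and 0.08 against 0.00 at 72 h.

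**Figure D1:**
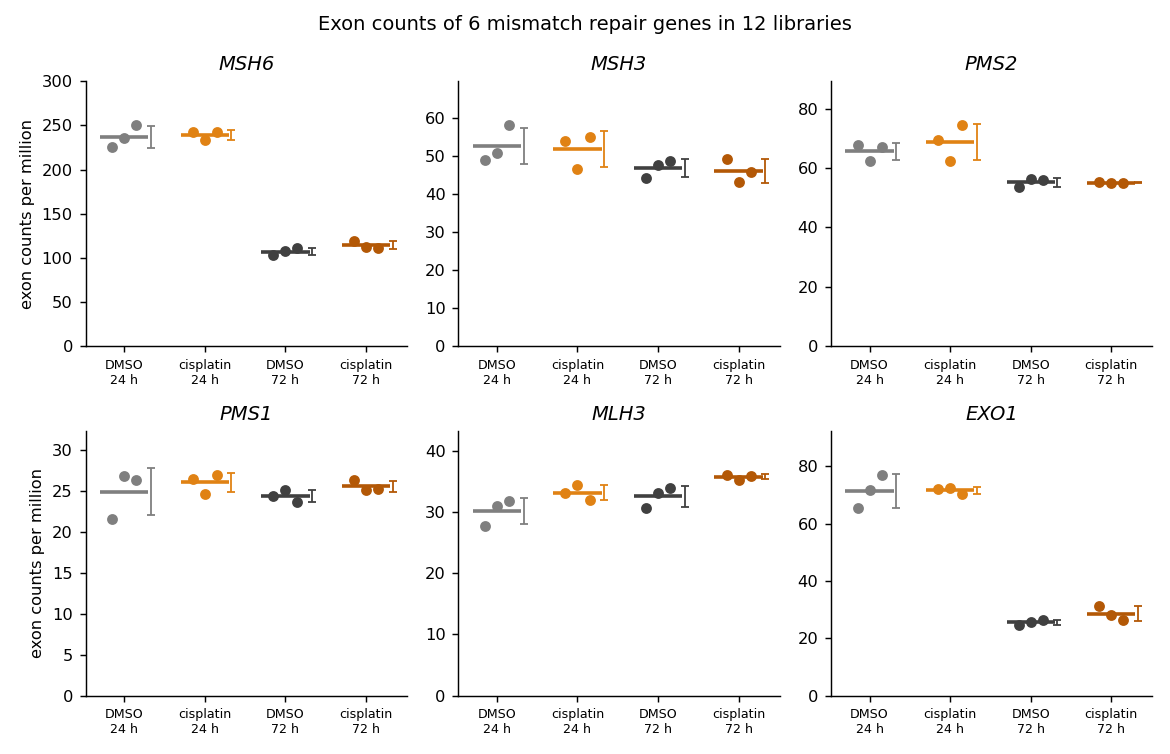
Exon CPM (TMM-scaled, y axis from 0) of each gene in the 12 libraries, by group on the x axis; points are libraries, horizontal lines group means and bars SD. MSH6 and EXO1 separate 24 h from 72 h libraries in both treatments, PMS2 does so by a smaller step, and no gene separates cisplatin from DMSO by as much.

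Between 24 and 72 h, 3 of the 6 genes fell in DMSO and the same 3 in cisplatin: EXO1, MSH6 and PMS2. None rose. In DMSO 65.1% of all genes were called (32.5% lower) and in cisplatin 63.5% (31.5% lower), so a call as such was common. The 24 h libraries used here are also those of the drug comparison, and time cannot be told apart from anything else that differed between the harvests. PECAM1 fell too, at -0.82 ± 0.05 on the log2 scale in DMSO and -0.74 ± 0.05 in cisplatin, and of the 5 carcinoma markers tested 3 rose and 2 fell in DMSO, while 3 rose and 1 fell in cisplatin. The part of these in the fall of the 3 genes was not tested.

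EXO1 fell from 65.4 to 76.9 exon CPM in the DMSO libraries at 24 h to 24.7 to 26.3 at 72 h, and from 70.2 to 72.3 to 26.4 to 31.3 in cisplatin. The ranges did not overlap, and the 72 h level was 0.360 times that at 24 h in DMSO and 0.400 times in cisplatin. By edgeR the log2 fold change was -1.47 ± 0.07 (adjusted p = 2.1e-14) in DMSO and -1.32 ± 0.07 (adjusted p = 1.1e-13) in cisplatin, each with 3 libraries per group. Of the 10444 genes tested, 86 (0.823%) had a value this low or lower in DMSO and 82 (0.785%) in cisplatin.

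MSH6 had 226, 235 and 250.3 exon CPM in DMSO at 24 h and 103, 108 and 111 at 72 h. In cisplatin it had 243, 233 and 242 at 24 h and 119, 112 and 112 at 72 h. All 24 h libraries of MSH6 thus lay above all 72 h libraries, and the 72 h level was 0.452 times that at 24 h in DMSO and 0.477 times in cisplatin. Its log2 fold change was -1.15 ± 0.05 in DMSO (adjusted p = 7.7e-15 by edgeR) and -1.07 ± 0.05 in cisplatin (adjusted p = 2.7e-14), values reached by 190 (1.82%) and 179 (1.71%) of all genes.

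PMS2 fell by less, from 67.6, 62.4 and 67.0 to 53.5, 56.2 and 55.9 exon CPM in DMSO. In cisplatin the values were 69.3, 62.5 and 74.4 at 24 h and 55.21, 54.99 and 55.05 at 72 h. Its ranges did not overlap in either treatment. The log2 fold change of PMS2 was -0.25 ± 0.06 in DMSO (adjusted p = 0.0016 by edgeR) and -0.31 ± 0.06 in cisplatin (adjusted p = 0.00015), and 29.0% and 22.7% of all genes had values as low.

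MSH3, the other MutS subunit, did not pass the test in either treatment. It had 49.1, 50.9 and 58.2 exon CPM at 24 h and 44.2, 47.8 and 48.6 at 72 h in DMSO, without overlap, and 53.9, 46.6 and 55.2 against 49.4, 43.1 and 45.8 in cisplatin, where the ranges overlapped. The log2 fold change was -0.16 ± 0.08 (adjusted p = 0.066 by edgeR) in DMSO and -0.17 ± 0.08 (adjusted p = 0.062) in cisplatin. Across 16 settings each, the MSH3 value passed in 3 for DMSO (adjusted p 0.028 to 0.321) and in 4 for cisplatin (0.011 to 0.244). The adjusted p was 0.039 and 0.034 without the filter on low counts, 0.028 and 0.046 in DMSO without DMSO 24 h replicate 1 or cisplatin 24 h replicate 2, and 0.042, 0.011 and 0.023 in cisplatin without DMSO 24 h replicate 3, cisplatin 24 h replicate 2 or cisplatin 72 h replicate 1. The log2 fold change shrank to -0.093 in DMSO (adjusted p = 0.321 by edgeR) without DMSO 24 h replicate 3, and to -0.12 in cisplatin (adjusted p = 0.244) without cisplatin 72 h replicate 2. The remaining MutL subunits were not called: PMS1 was at -0.03 ± 0.08 and -0.02 ± 0.08, with 21.6 to 27.0 exon CPM over all 12 libraries, and MLH3 was at 0.11 ± 0.07 and 0.10 ± 0.07, with 27.8 to 36.1.

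**Figure D2:**
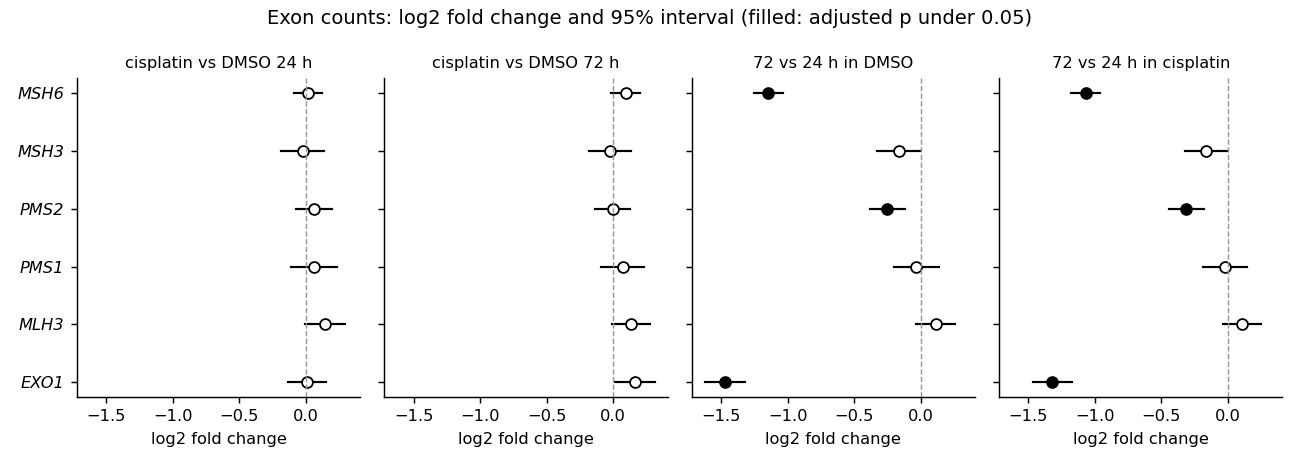
Log2 fold change of exon counts (x axis) for each gene in the 4 comparisons, with 95% intervals from edgeR; filled points passed an adjusted p of 0.05. Cisplatin against DMSO has no filled point, and 72 against 24 h has filled points at EXO1, MSH6 and PMS2 in both treatments.

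The fall with time was not called different between DMSO and cisplatin for any of the 6 genes. The interaction (the cisplatin effect at 72 h minus that at 24 h) passed for 0 of the 6 by edgeR, with 0 of 6 at an unadjusted p under 0.05 (0% of all genes called, and 985 of them at an unadjusted p under 0.05). For EXO1 it was 0.15 on the log2 scale (95% interval -0.05 to 0.36), for MSH6 0.08 (-0.08 to 0.23) and for PMS2 -0.06 (-0.25 to 0.12). As libraries were left out in turn these moved from 0.079 (without cisplatin 72 h replicate 1) to 0.21 for EXO1, from 0.038 (without DMSO 24 h replicate 3) to 0.11 for MSH6, and from -0.13 (without cisplatin 24 h replicate 2) to -0.0069 (without cisplatin 24 h replicate 3) for PMS2.

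Ratios of exon counts between subunits that share a partner were read in each library. The ratio of MSH6 to MSH3 exon counts, not scaled to length, was 4.60, 4.62 and 4.30 in the DMSO libraries at 24 h and 2.33, 2.25 and 2.27 at 72 h. In cisplatin the ratio was 4.51, 5.01 and 4.39 at 24 h and 2.42, 2.60 and 2.43 at 72 h. All 24 h ratios were above all 72 h ratios, and the 3 cisplatin ratios at 72 h were above the 3 DMSO ratios of that time. Among the MutL subunits, PMS2 to PMS1 was 2.67 ± 0.411 (SD, n = 3) at 24 h and 2.26 ± 0.0898 at 72 h in DMSO, with overlapping libraries, and 2.64 ± 0.115 and 2.15 ± 0.0518 in cisplatin, without overlap. PMS2 to MLH3 was 2.19 ± 0.219 and 1.70 ± 0.0495 in DMSO and 2.08 ± 0.256 and 1.54 ± 0.0163 in cisplatin, without overlap in either. These ratios are descriptions and were not tested.

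Genes that act after mismatch recognition were read from a list of 15, of which 13 were tested for exon counts, POLD4 did not pass the low-count filter and RFC4 was not analysed here. All 13 fell with time in DMSO and all 13 in cisplatin, with a median log2 fold change of -0.88 and -0.81 against 0.01 and 0.02 over all genes. PCNA, the sliding clamp that tethers the polymerase and directs MutL, was the lowest at -1.72 ± 0.06 in DMSO and -1.64 ± 0.06 in cisplatin. RFC3 and RFC5, subunits of the clamp loader, were at -1.07 ± 0.06 and -0.99 ± 0.07 in DMSO and -1.03 ± 0.06 and -1.02 ± 0.07 in cisplatin. RPA1, of the single-strand binding complex, was at -1.05 ± 0.05 and -0.98 ± 0.05. The falls were unequal within the clamp loader and within the single-strand binding complex. RFC1, the large clamp loader subunit, was at -0.22 ± 0.06 and -0.24 ± 0.06, POLD2, of DNA polymerase delta, at -0.22 ± 0.05 and -0.26 ± 0.05, and RPA3, of the same complex as RPA1, at -0.23 ± 0.08 and -0.40 ± 0.08. With cisplatin, 0 of the 13 passed at 24 h or 72 h by edgeR, with 0 at an unadjusted p under 0.05 at each time. Of the meiotic MutS homologues MSH4 had at most 6 exon counts in any library, and MSH5 was not analysed here.

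Genes of S phase and proliferation, listed beside these because replication and repair genes are often expressed together, fell in the same comparison. All 11 tested of a list of 12 (MCM3 was not analysed here) were lower at 72 h in both treatments, with a median of -1.37 in DMSO and -1.16 in cisplatin. CCNE2, a cyclin of S-phase entry, was at -2.35 ± 0.11 and -2.38 ± 0.10, and MCM4, of the replicative helicase, at -2.10 ± 0.06 and -1.83 ± 0.06. RRM2, a ribonucleotide reductase subunit, was at -1.98 ± 0.05 and -1.82 ± 0.05, and CDC6, a licensing factor, at -1.62 ± 0.07 and -1.46 ± 0.07. EXO1 and MSH6 lay within the range of this list, whereas PMS2, MSH3, PMS1 and MLH3 lay above all of it; PMS2 lay within the range of the later repair genes. With cisplatin at 72 h, 0 of the 11 passed by edgeR while 7 of the 11 had an unadjusted p under 0.05, all 11 with values above 0 (median 0.19). Over all 10444 genes tested, 1311 had an unadjusted p under 0.05 in that comparison and 3 were called. The part of a changed share of cycling cells in the fall of EXO1 and MSH6 was not tested.

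**Figure D3:**
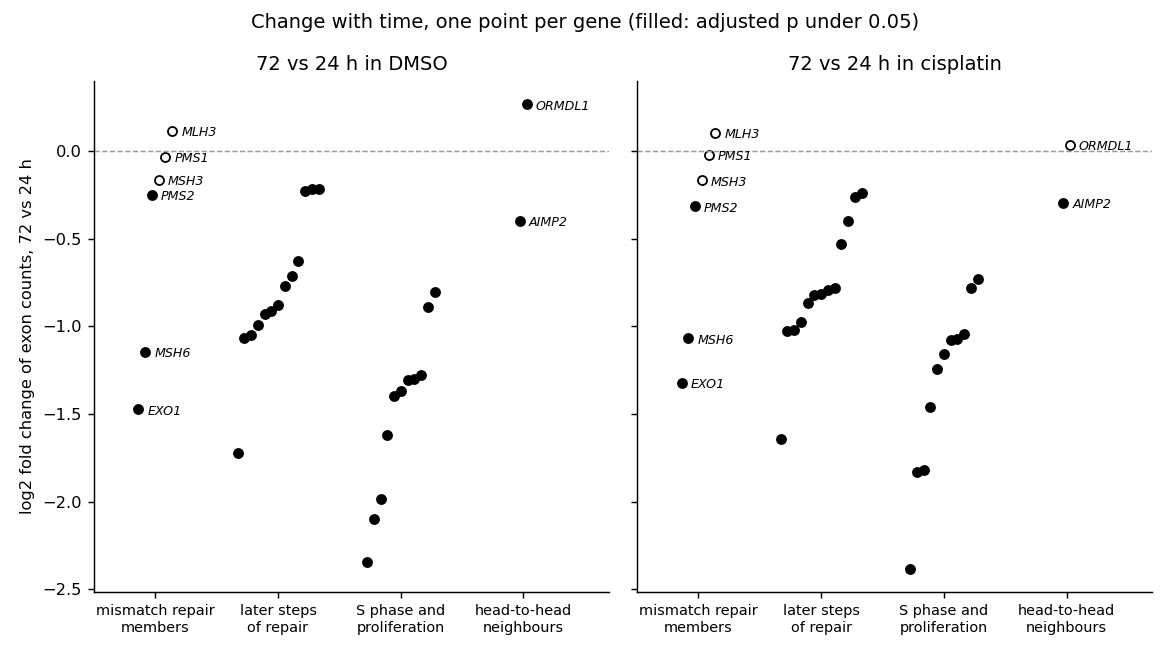
Log2 fold change of exon counts from 24 to 72 h (y axis) in DMSO and in cisplatin, with 1 point per gene grouped by list on the x axis; filled points passed an adjusted p of 0.05. EXO1 and MSH6 sit within the range of both the later repair and the S-phase genes, and PMS2 (-0.25 and -0.31) within that of the later repair genes, beside RFC1, POLD2 and RPA3.

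Neighbouring genes that start head to head with PMS2 and PMS1 were compared with them. PMS2 starts 125 bases from AIMP2, a scaffold of the aminoacyl-tRNA synthetase complex. Both fell with time: AIMP2 was at -0.40 ± 0.09 in DMSO and -0.29 ± 0.09 in cisplatin (adjusted p = 0.00070 and 0.0073 by edgeR), and their count ratio overlapped between times in both treatments (0.202 to 0.271 over all 12 libraries). PMS1 and ORMDL1, a regulator of sphingolipid synthesis, overlap at their starts, which lie 279 bases apart. ORMDL1 rose with time in DMSO (0.27 ± 0.09, adjusted p = 0.013 by edgeR), where PMS1 was not called, and ORMDL1 was at 0.04 ± 0.09 in cisplatin.

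**Figure D4:**
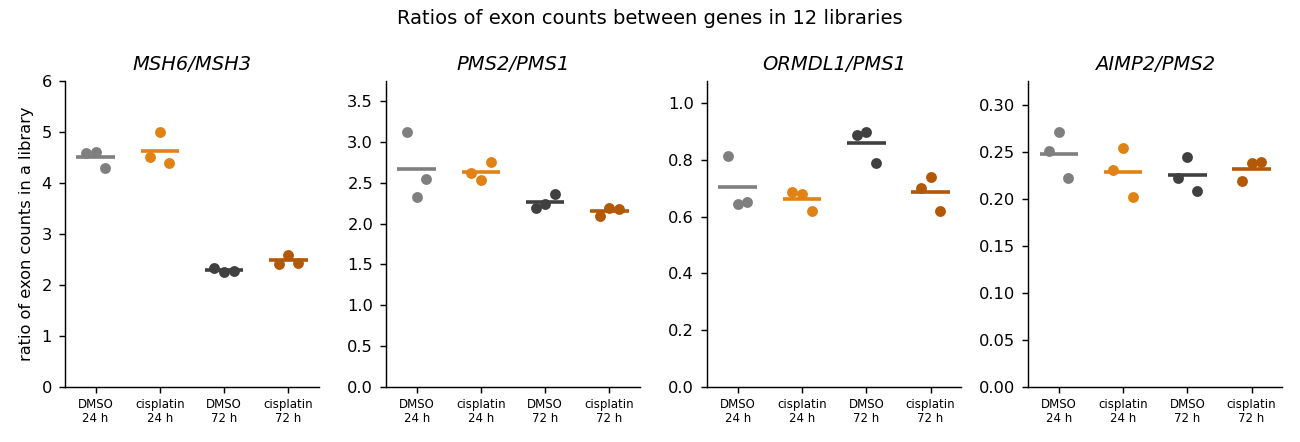
Ratio of the exon counts of 2 genes in each library (y axes from 0, not scaled to length) by group; points are libraries and lines group means. MSH6/MSH3 runs from 4.30 to 5.01 at 24 h and from 2.25 to 2.60 at 72 h, while AIMP2/PMS2 overlaps between times.

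Intron counts, which stand for RNA that still held introns, made up very different shares of the 6 genes. Summed over the 12 libraries, intron counts were 31.9% of the exon and intron counts of PMS1, 8.45% of MLH3, 2.93% of EXO1, 2.39% of MSH3, 2.33% of PMS2 and 0.836% of MSH6. Over the 9393 genes with a tested exon/intron ratio the median share was 6.42% (quartiles 2.55% and 17.0%). Of these genes, 87.3% had a share at or below that of PMS1 and 5.63% at or below that of MSH6. Counts per kilobase of annotated intron were 51.1 for PMS1 and 40.1 for MLH3, against 20.1 for PMS2, 11.9 for EXO1, 5.32 for MSH6 and 2.08 for MSH3, whose introns are the longest.

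The share of PMS1 stayed between 28.5% and 34.5% in all 12 libraries and that of MSH6 between 0.546% and 1.15%. The head-to-head neighbour of PMS1, ORMDL1, had 45.3% to 54.4%, and reads of the 2 overlapping genes cannot be told apart where strand was not used. For 4 genes the intron counts were few: MSH3, MSH6, PMS2 and EXO1 had between 12 and 88 per library, which limits what can be seen for them, while PMS1 had 184 to 808. These counts carry no molecular identifiers, so counting error understates their uncertainty.

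**Figure D5:**
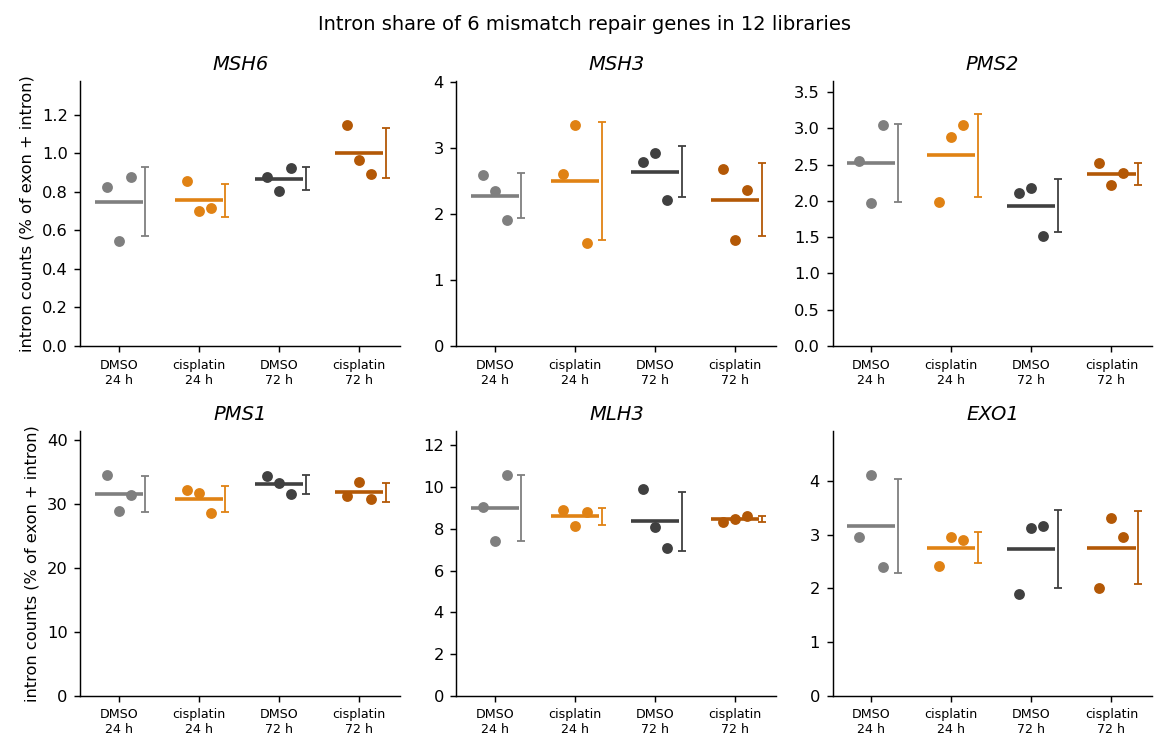
Intron counts as a percentage of exon plus intron counts (y axes from 0, a different scale per gene) in the 12 libraries by group; points are libraries, lines means and bars SD. The share differs by gene, from 0.836% for MSH6 to 31.9% for PMS1 over all libraries, and the groups overlap for most genes.

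With cisplatin, no intron count of the 6 genes passed at either time by edgeR over 9618 genes (0.0208% of all genes called at 24 h and 0.0416% at 72 h). At an unadjusted p under 0.05 there were 0 of 6 at each time, against 481 and 621 of all genes. The log2 fold changes ranged from -0.30 to 0.05 at 24 h and from -0.36 to 0.24 at 72 h, the lowest being MSH3 at 72 h (-0.36 ± 0.27, 95% interval -0.90 to 0.19). That MSH3 value was -0.64 without cisplatin 72 h replicate 1 and -0.093 without cisplatin 72 h replicate 2. The lowest value at 24 h, that of EXO1, ranged from -0.45 to 0.021 as libraries were left out. The highest values, those of PMS2, ranged in the same way from -0.16 to 0.22 at 24 h and from 0.059 to 0.36 at 72 h. With time, EXO1 fell in both treatments and MSH6 fell in DMSO, so that 2 of 6 were called in DMSO (33.4% of all genes) and 1 of 6 in cisplatin (31.8%). Intron CPM values of EXO1 were 27.5, 44.8 and 24.8 in DMSO at 24 h and 7.05, 12.1 and 12.4 at 72 h, a log2 fold change of -1.61 ± 0.28 (adjusted p = 5.7e-06 by edgeR). In cisplatin EXO1 gave -1.25 ± 0.27 (adjusted p = 0.00017). The intron counts of this gene thus fell with its exon counts.

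MSH6 had 26.0, 18.8 and 29.0 intron CPM in DMSO at 24 h and 13.5, 12.7 and 14.8 at 72 h, without overlap. Its log2 fold change was -0.82 ± 0.27 in DMSO (adjusted p = 0.013 by edgeR; -0.70 with adjusted p = 0.066 without DMSO 24 h replicate 3). In cisplatin MSH6 was at -0.57 ± 0.25 (adjusted p = 0.074), and passed in 1 of 16 settings, at -0.73 (adjusted p = 0.049) without cisplatin 72 h replicate 1, against -0.45 (adjusted p = 0.240) without cisplatin 24 h replicate 1. PMS2 was at -0.58 ± 0.27 (adjusted p = 0.092) in DMSO and -0.39 ± 0.25 in cisplatin, where it was -0.18 without cisplatin 24 h replicate 3. MSH3 (0.11 ± 0.29 and -0.30 ± 0.28), MLH3 (0.06 ± 0.18 and 0.16 ± 0.17) and PMS1 (0.15 ± 0.11 and 0.11 ± 0.11) did not pass. Leaving out a library moved these by more than 1.5 times. MSH3 ranged from 0.0072 (without DMSO 72 h replicate 2) to 0.22 (without DMSO 72 h replicate 3) in DMSO, and from -0.57 (without cisplatin 72 h replicate 1) to -0.034 (without cisplatin 72 h replicate 2) in cisplatin. In cisplatin MLH3 and PMS1 were at 0.082 and 0.052 without cisplatin 24 h replicate 2. For the interaction 0 of 6 passed, with 0 of 6 at an unadjusted p under 0.05 (0.0416% of all genes called, and 549 of them at an unadjusted p under 0.05).

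The ratio of exon to intron counts, read as a measure of how far RNA was spliced, was called for none of the 6 genes with edgeR, which includes the spread between replicates. Over 9393 genes, 0 of 6 passed for the drug at 24 h (0% of all genes) or 72 h (0.0213%), between times in DMSO (11.5%) or cisplatin (12%), or for the interaction (0%). Over all genes 595, 586, 2367, 2554 and 428 had an unadjusted p under 0.05 in these, in the same order. Among the 6 genes the counts were 0 of 6 in each except time in cisplatin, where it was 1 of 6. That gene was MSH6, at -0.43 ± 0.20 (adjusted p = 0.163 by edgeR); its exon/intron ratios were 116, 142 and 138 at 24 h and 86.3, 102 and 111 at 72 h. PMS2 had the highest value of the time comparison in DMSO, 0.40 ± 0.24, and the lowest of cisplatin against DMSO at 72 h, -0.34 ± 0.22. The first was 0.57 without DMSO 24 h replicate 2 and 0.21 without DMSO 72 h replicate 3, and the second was -0.44 without DMSO 72 h replicate 2 and -0.14 without DMSO 72 h replicate 3. MSH3 was at 0.27 ± 0.25 for time in cisplatin.

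Logistic regression of exon against intron counts, which treats reads as independent and has no term for replicate spread, called more genes overall: 11.5% with the drug at 24 h and 11.4% at 72 h, 33.7% between times in DMSO and 40.6% between times in cisplatin. Of the 6 genes it called 0, 0, 0 and 1. At an unadjusted p under 0.05 the counts were 0, 0, 1 and 1, against 2392, 2509, 4066 and 4626 of all genes. The called gene was MSH6, lower at 72 h in cisplatin at -0.43 ± 0.17 (adjusted p = 0.028 over 9818 genes; 95% interval -0.76 to -0.10). The call was lost with a quasi-binomial model (adjusted p = 0.200) and without cisplatin 24 h replicate 2 (-0.35, adjusted p = 0.181), cisplatin 24 h replicate 3 (-0.41, 0.057) or cisplatin 72 h replicate 1 (-0.33, 0.171). PMS2 was at 0.41 ± 0.20 for time in DMSO (adjusted p = 0.096), with 0.58 (0.029) without DMSO 24 h replicate 2 and 0.20 (0.543) without DMSO 72 h replicate 3. For cisplatin at 72 h PMS2 was at -0.35 ± 0.18 (adjusted p = 0.217), and ranged from -0.45 to -0.14 as libraries were left out. MSH3 was at 0.31 ± 0.19 for time in cisplatin (adjusted p = 0.182). It was 0.50 (0.032) without cisplatin 24 h replicate 3 and 0.53 (0.041) without cisplatin 72 h replicate 1, but 0.00086 (0.998) without cisplatin 24 h replicate 2.

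Likeness between genes was the root mean square difference of their centred log2 CPM over the 12 libraries, given as a description, since libraries of a group share their condition. Among the 15 pairs of the 6 genes, MSH3 and PMS2 were most alike (0.095), followed by MLH3 and PMS1 (0.102), and MSH6 and EXO1 stood at 0.148. The least alike were MLH3 and EXO1 (0.750). Among 9554 other genes with a mean of at least 50 exon counts, the closest to EXO1 was XRCC2 (0.049), a homologous recombination gene, and the closest to MSH6 was DDX46 (0.030). The closest to MSH3 was MPHOSPH8 (0.042), to MLH3 RNF19A (0.069), to PMS1 PIGK (0.050) and to PMS2 PSMD13 (0.045). Each is the closest of 9554 genes, so these values cannot be set against those of the 15 pairs.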

How the data were processed

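Poly(A) RNA libraries of TYK-nu cells were sequenced by the authors, who, per the labels and methods, used FastQC 0.11.8, Trim Galore 0.6.0, HISAT2 2.1.0 and HTSeq-count on GRCh38 with Ensembl 98. The authors deposited raw counts of reads per gene, taken separately over exons and introns. Replicates were not pooled. The strand setting of the counting is not given in the sources used here. Intron reads counted toward a gene can come from overlapping genes.

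Symbols and gene models came from GENCODE 44 (17485 of 17508 identifiers matched) and promoters from RefSeq on GRCh38.p14, which matched all 6 genes. Copies were sought with blastn 2.17.0. Exon and intron counts were tested with edgeR 4.0.16 (R 4.3.3): TMM scaling, filterByExpr, and one quasi-likelihood fit over all 12 libraries, with 4 comparisons and the interaction. The exon/intron ratio was tested with edgeR on both count types together (at least 10 exon and 10 intron counts in 3 libraries) and with the binomial logistic regression named in the study's methods (at least 1 of each in every library compared). Adjusted p is Benjamini-Hochberg over all genes tested, with a threshold of 0.05. Fold changes carry no added prior count, and the SE is the log2 fold change divided by the root of F. Scripts were tested on simulated data. Alternatives were DESeq2 1.42.0, other scaling, no low-count filter, a quasi-binomial model, a replicate block and leaving out each library. Figures and tables used Python 3.11.15, pandas 2.3.3, numpy 2.4.6 and matplotlib 3.10.9.

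The 6 genes and all lists were chosen with earlier results of these data known. Named beside the 6 genes were members of lists of later repair steps, meiotic MutS homologues, S-phase genes, head-to-head neighbours (starts within 2000 bases) and cell type markers. From the later repair steps and S-phase genes these were those with the largest changes. RFC1, POLD2 and RPA3, with smaller falls, were named besides. The most alike gene by centred log2 CPM (0.5 added) was also named. RFC4, MSH5, MCM3 and MUC16 were not analysed here, and 1 head-to-head neighbour is not reported here. The counts carry no molecular identifiers, so the depth sets only a lower limit to their error, and levels of genes with few intron counts are imprecise.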

Additional observations from a re-analysis of the deposited data

How the results depend on the processing

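Of 114 tested values of the 6 genes, 10 were called. None of the 10 changed sign under any alternative run, 2 lost the call and 5 values gained one, while 53 of the 104 values not called changed sign under some alternative. The cause of these changes was not tested. DESeq2 called as many of the 6 as edgeR in every comparison of exon and of intron counts. In some comparisons, however, it gave no adjusted p, so a call was not possible. For cisplatin at 72 h this held for EXO1, MLH3, MSH3 and PMS1 in exon counts and for all but PMS1 in intron counts. For the interaction in exon counts it held for all but MSH6. Leaving out each library in turn moved the exon log2 fold changes for cisplatin. At 24 h they ranged from -0.051 to 0.064 for EXO1, from -0.073 to 0.053 for MSH3 and from -0.019 to 0.055 for MSH6. PMS1 ranged from -0.035 to 0.12 and PMS2 from 0.0034 to 0.13. At 72 h they ranged from -0.085 to 0.023 for MSH3 and from 0.055 to 0.12 for MSH6. PMS1 then ranged from 0.043 to 0.093 and PMS2 from -0.025 to 0.010. For PMS1 leaving out a library moved the exon time effect from -0.13 to 0.028 in DMSO and from -0.063 to 0.0016 in cisplatin. For MLH3 it moved this effect from 0.057 to 0.16 in DMSO. It moved the intron time effect of MLH3 in DMSO from -0.046 to 0.20 and the edgeR ratio of MSH3 with time in cisplatin from -0.021 to 0.48. The number of the 6 genes called ranged from 3 to 4 for exon counts with time in each treatment, from 1 to 2 for intron counts with time in each treatment, and from 0 to 1 for the logistic ratio with time in each treatment. Over all genes, leaving out a library gave 0 to 72 exon calls for cisplatin at 72 h and 3 to 12 intron calls, 729 to 1138 logistic calls (245 to 1555 at 24 h), and 699 to 1190 and 638 to 1224 edgeR ratio calls with time in DMSO and in cisplatin. The counts of 12, 729, 245, 699 and 638 were those without cisplatin 24 h replicate 2, DMSO 72 h replicate 1, cisplatin 24 h replicate 2, DMSO 72 h replicate 2 and cisplatin 72 h replicate 2. Smaller counts ranged from 0 to 3 (intron calls for cisplatin at 24 h), 0 to 7 (intron interaction) and 1 to 4 (edgeR ratio for cisplatin at 72 h). With the quasi-binomial model the logistic calls among the 6 genes with time in cisplatin went from 1 to 0. Under the other alternatives, calls over all genes moved by more than 1.5 times as follows. Without the low-count filter, exon calls went from 0 to 7 (cisplatin, 24 h), from 3 to 154 (72 h) and from 0 to 20 (interaction), and intron calls from 2 to 5, from 4 to 19 and from 4 to 11. With DESeq2 they went from 3 to 79 for exon counts at 72 h, and from 2 to 0 and from 4 to 2 for intron counts at 24 and 72 h. With 1 exon and 1 intron count as the filter, edgeR ratio calls went from 0 to 2, from 2 to 13 and from 0 to 6. With the quasi-binomial model, logistic calls went from 1110 to 0, from 1144 to 0, from 3278 to 65 and from 3984 to 102.

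Replicate numbers are shared between groups, but nothing says what a number stands for. Deviations of same-numbered libraries correlated between -0.20 and 0.13, and 0, 2, 4 and 6 of 6 libraries correlated best with their own number in the 2 cisplatin comparisons and in time in DMSO and in cisplatin, a hint from the data and not the design. With the replicate block the number of the 6 genes called was unchanged in every comparison (3 and 3 for exon counts with time, 2 and 1 for intron counts). Over all genes the block took exon calls with time from 6796 to 6751 in DMSO and from 6636 to 6538 in cisplatin, and intron calls from 2 to 0 for cisplatin at 24 h and from 4 to 0 for the interaction.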
